A study of Mus musculus with 8 samples.

Results

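Collagens, proteoglycans and matrix glycoproteins were followed here as 57 listed mouse genes in 9 classes of the extracellular matrix. Members were taken by gene symbol from a list of matrix genes, chosen with earlier results of these data known. The array carried 54 of them on probe sets with a single symbol, of 18193 such genes in all. Fbn1, Spp1 and Loxl2 had no probe set with that as its single symbol in the annotation used and were not analysed here. A gene with several probe sets was represented by the one whose mean over both groups was highest. The cells were mouse embryonic stem (ES) cell-derived neural stem cells (NSCs), a self-renewing culture with radial glia features, grown in a defined medium with EGF and FGF2. The irr group was 4 samples collected 7 days after a single X-ray dose of 10 Gy, and the non-irr group was 4 samples without irradiation. Total RNA was hybridised to 1 Affymetrix mouse expression array per sample. The submitters called the samples biological quadruplicates, and the study's methods say that the irradiation experiments were done in quadruplicate. Whether these used independent cultures is not given in the sources used here. The p-values therefore measure only the spread between these samples, which may be technical. The arrays do not count cells: in bulk RNA, a change in the share of a cell type and a change in RNA per cell cannot be told apart.

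The extracellular matrix is the secreted scaffold around cells. Fibrillar collagens give it tensile strength, basement membranes are sheets of type IV collagen tied to laminin by nidogens and perlecan, and proteoglycans carry long sulfated sugar chains that hold water and growth factors. Adult brain matrix is poor in fibrillar collagen and rich in hyaluronan, lecticans and tenascins, and syndecans and glypicans display heparan sulfate at the cell surface, where FGF binds its receptors.

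Values are log2 intensities after robust multi-array averaging (RMA), and all differences are irr minus non-irr on that scale. An intensity of 100, which is 6.64 on the log2 scale, served as the floor. A gene was tested if at least 1 array exceeded it. Every irr array correlated with every other irr array, and every non-irr array with every other non-irr array, at 0.996 to 0.998 over all probe sets, against 0.972 to 0.976 between groups. A smaller component, holding 3.68% of the variance, set irr arrays 1 and 2 apart from irr arrays 3 and 4. It also spread the non-irr arrays: array 4 lay at -12.12, on the side of irr arrays 3 and 4. Non-irr arrays 1, 2 and 3 lay at -2.12, 8.02 and 6.23. For the members the split within the irr arrays was small, with a median absolute difference of 0.08 and a highest one of 0.365, for Mgp. The 12 NSC markers all passed the floor on at least 1 array, and their summed intensity was 66000 to 70300 on irr arrays and 59100 to 61300 on non-irr arrays. Fabp7 and Vim were the brightest, with irr means of 14.5 and 14.3, and weigh most in this sum. Of the 12 markers 5 (41.7%) were called higher and 3 (25%) lower, against 40.2% and 37.1% of all genes tested. Higher were Cdh2 (0.52), Slc1a3 (0.46), Sox2 (0.23), Fabp7 (0.18) and Vim (0.16). The 3 called lower were the transcription factor genes Pax6 (-0.54) and Hes5 (-0.63) and the RNA-binding protein gene Msi1 (-0.17). The 4 not called were Nes, Sox9, Olig2 and Prom1. Each marker was read on its brightest probe set, and several, among them Nes and Vim, had others past the floor. By quantitative PCR, the study reported less Nes, Sox2, Pax6, Sox9, Olig2, Msi1 and Vim RNA in irr NSCs. The arrays showed this direction for Pax6 and Msi1, but not for Sox2 and Vim. RNA end gaps also differed: the 3′ minus 5′ signal of the actin control was 0.51 ± 0.07 on irr arrays and 0.26 ± 0.03 on non-irr arrays (SD, n = 4 each), and that of the transferrin receptor control was 0.85 ± 0.24 on irr arrays and 0.35 ± 0.21 on non-irr arrays. For pyruvate carboxylase it was 1.06 ± 0.07 on irr arrays and 0.52 ± 0.11 on non-irr arrays, and for the Gapdh control -0.06 ± 0.03 on irr arrays and -0.08 ± 0.04 on non-irr arrays.

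Irr NSCs had higher signal for most of the listed matrix genes that could be tested. Of the 43 members past the floor, 29 (67.4%) were called higher and 8 (18.6%) lower at an adjusted p under 0.05, and 6 were not called. The same test called 40.2% of all 11364 genes higher and 37.1% lower. At least 2-fold differences were found for 15 members in the higher direction (34.9%) and 3 in the lower (6.98%), against 8.88% and 6.16% of all genes. In 36 members the 2 groups of arrays did not overlap, with every irr array above in 29 and below in 7, against 38.4% and 35.0% of all genes. The median log2 difference of the 43 members was 0.41, and that of all genes tested was 0.0065. With members that had 1 group below the floor set at their bound, the members' median was 0.40. These shares describe only members that passed the floor, from a list chosen with earlier results known, and not matrix genes in general. Outside the list, 45% of 20 other matrix glycoprotein and proteoglycan genes tested were higher and 35% lower. Of these 20 genes, 30% were at least 2-fold higher and 5% at least 2-fold lower. Of 7 other collagen genes tested, 28.6% were higher and 28.6% lower. The other 11 members on the array stayed below it on all 8 arrays, at 4.35 to 6.58, and are named with their classes. In 7 of the members tested 1 group lay below it on every array, so that they could enter the test only through the other group, and with the floor in place of the lower group 12 members remained at least 2-fold higher.

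**Figure D1:**
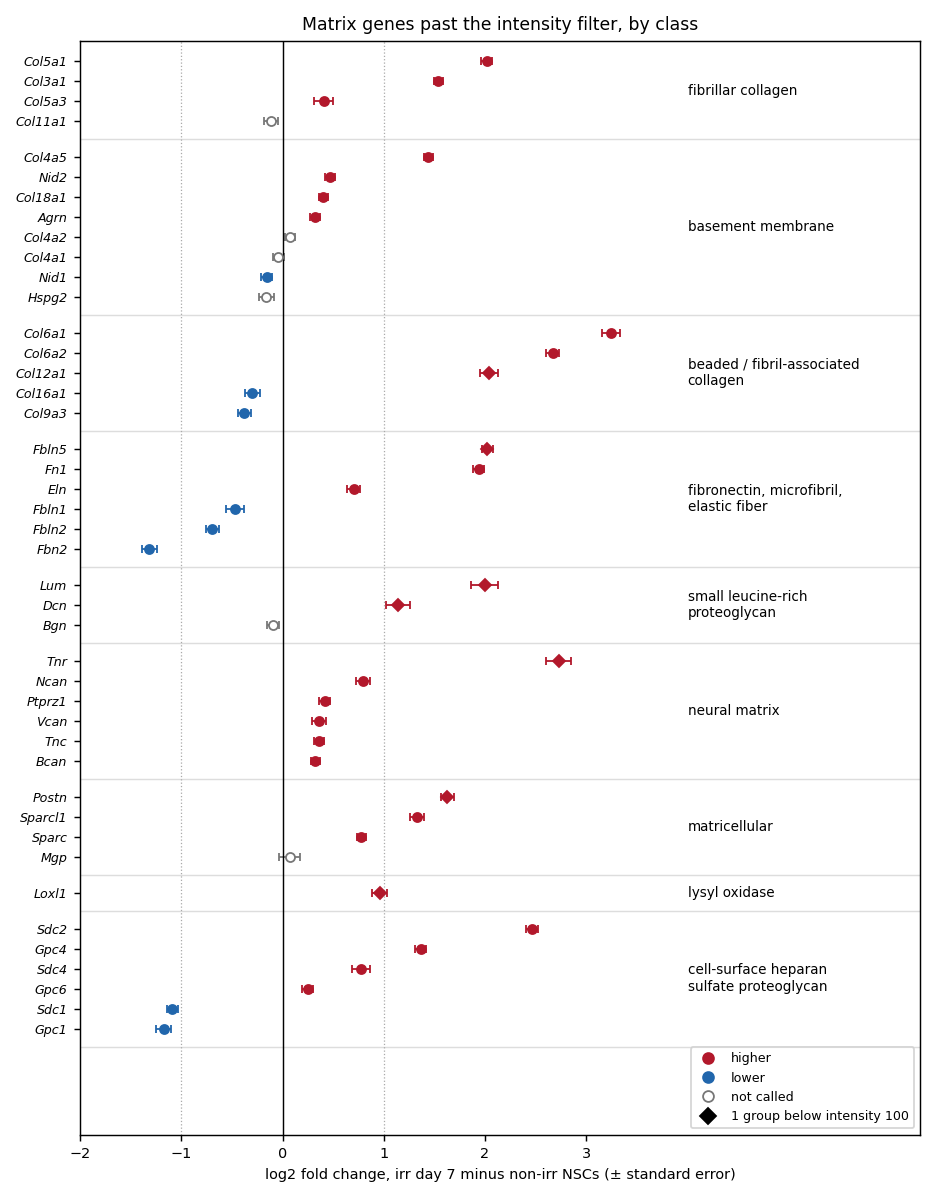
Differences on the log2 scale between irr NSCs at day 7 and non-irr NSCs (x axis, irr minus non-irr, with the standard error as bars) for the 43 matrix genes past the floor, grouped by class. Filled red points were called higher, filled blue points lower and open points were not called, diamonds mark genes with 1 group below an intensity of 100 on every array, and dotted lines mark 2-fold differences. Col6a1 lies farthest right at 3.25 and Fbn2 farthest left at -1.32. The blue Nid1 point and the open Col4a1, Bgn, Col11a1 and Hspg2 points moved to the right of 0 when arrays were centred on reference genes.

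Type VI collagen forms beaded filaments near cell surfaces, and the chain genes Col6a1 and Col6a2 are neighbours on chromosome 10. Col6a1 read 9.75, 9.88, 10.08 and 10.05 on irr arrays 1 to 4, against 6.79, 6.73, 6.76 and 6.51 on non-irr arrays 1 to 4, an order of arrays kept throughout. The difference was 3.25 ± 0.09 (SE, adjusted p = 1.55e-09), or 9.48-fold, the largest of the members tested. Its non-irr arrays sat at the floor, 3 just above it and 1 below. Col6a2 read 10.37, 10.16, 10.33 and 10.32 on irr arrays, against 7.60, 7.69, 7.70 and 7.52 on non-irr arrays, a difference of 2.67 ± 0.06 (adjusted p = 6.85e-10). A second Col6a2 probe set gave 1.497, so the size depended on the probes while the direction did not. Another chain gene of this collagen, Col6a3, outside the 57, had all 4 non-irr arrays below the floor and was at least 1.35-fold higher (adjusted p = 7.26e-07).

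Type IV collagen, the network former of basement membranes, showed no call for its main chains. The major chain genes Col4a1 and Col4a2 lie head to head on chromosome 8. Col4a1 read 10.76, 10.76, 10.77 and 10.81 on irr arrays, against 10.77, 10.75, 10.79 and 10.96 on non-irr arrays. Col4a2 read 9.06, 9.12, 9.10 and 9.12 on irr arrays, against 9.05, 8.98, 8.95 and 9.13 on non-irr arrays. Both pairs of groups overlapped, with differences of -0.04 ± 0.05 for Col4a1 (adjusted p = 0.475) and 0.07 ± 0.05 for Col4a2 (adjusted p = 0.201). For Col4a1 the choice of probes and scaling mattered. Its dimmer probe set was called higher by 0.35. The mean of its probe sets gave 0.15 and centring on reference genes gave 0.22, both called higher. The same centring gave 0.34 for Col4a2, also called higher (0.078, not called, for Col4a1 and 0.20, called, for Col4a2 without the reference gene Tfrc). The promoter windows of these 4 genes are shown because 1 neighbouring pair was called higher, the other was not called, and the windows of Col4a1 and Col4a2 overlap. They run 5′ to 3′ on the strand of the gene, from 250 bases before to 50 after an annotated start (RefSeq, GRCm38.p6). Capitals mark GC boxes, GGGCGG or CCGCCC on the printed strand, and, in Col6a1, the letters TGANTCA of an AP-1 site:
Col6a1, chr10:76725995-76726294, minus strand: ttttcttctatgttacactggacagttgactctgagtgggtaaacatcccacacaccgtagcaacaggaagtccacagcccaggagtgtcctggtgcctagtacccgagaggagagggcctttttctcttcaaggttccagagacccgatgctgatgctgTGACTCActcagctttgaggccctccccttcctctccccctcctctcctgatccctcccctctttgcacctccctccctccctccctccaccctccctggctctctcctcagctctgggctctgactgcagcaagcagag
Col6a2, chr10:76623355-76623654, minus strand: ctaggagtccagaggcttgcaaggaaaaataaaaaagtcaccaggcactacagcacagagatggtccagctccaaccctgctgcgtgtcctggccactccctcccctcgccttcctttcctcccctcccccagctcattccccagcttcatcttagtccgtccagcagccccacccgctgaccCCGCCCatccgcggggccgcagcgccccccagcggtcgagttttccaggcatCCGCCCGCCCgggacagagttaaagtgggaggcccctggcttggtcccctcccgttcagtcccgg
Col4a1, chr8:11312777-11313076, minus strand: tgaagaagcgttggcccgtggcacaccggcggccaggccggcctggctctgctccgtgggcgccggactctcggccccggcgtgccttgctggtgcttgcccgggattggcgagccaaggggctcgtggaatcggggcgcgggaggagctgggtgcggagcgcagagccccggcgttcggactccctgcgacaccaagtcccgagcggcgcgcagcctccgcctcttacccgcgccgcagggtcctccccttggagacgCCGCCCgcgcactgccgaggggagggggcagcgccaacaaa
Col4a2, chr8:11312555-11312854, plus strand: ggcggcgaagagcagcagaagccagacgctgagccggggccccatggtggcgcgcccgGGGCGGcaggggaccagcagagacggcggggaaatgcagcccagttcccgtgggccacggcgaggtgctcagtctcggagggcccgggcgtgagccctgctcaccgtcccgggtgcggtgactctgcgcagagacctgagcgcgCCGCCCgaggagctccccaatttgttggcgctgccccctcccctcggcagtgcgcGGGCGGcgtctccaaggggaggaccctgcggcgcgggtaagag

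The Col4a1 and Col4a2 windows overlap by 78 bases, read from opposite strands, and hold 37 and 33 CpG dinucleotides at 74.0% and 73.7% GC. The Col6a1 window had no GC box, 3 CpG and 57.3% GC. The Col6a2 window shown had 3 GC boxes, 2 of them overlapping each other, and the other annotated Col6a2 start lay 226 bases away. In all, 37 of the 57 genes matched the promoter table, with 45 windows among 32851. A GC box on either strand was found in 71.1% of member windows and 35.7% of all windows. Median GC content was 61.3% in member windows and 52.7% in all. CCAAT, on either strand, was found in 18 of the 45 member windows and 37.4% of all windows. TATAAA was found in 15.6% of member windows and 13.6% of all, and TGANTCA, whose reverse complement is the same motif, in 2.22% of member windows and 7.81% of all. No motif contains another. A match of letters is a description of the window and not a binding site.

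Beside these, 4 more pairs of members are next to each other in the genome. Dcn and Lum on chromosome 10, both small leucine-rich proteoglycans, were both called higher, with every non-irr array of both genes below the floor. Their values are given with their class. In the other 3 pairs, Col3a1 with Col5a2, Vcan with Hapln1 and Gpc4 with Gpc3, the first gene was called higher and its neighbour stayed below the floor on every array. Col5a2, for example, read 4.40 to 4.72 on irr arrays and 4.38 to 4.56 on non-irr arrays.

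**Figure D2:**
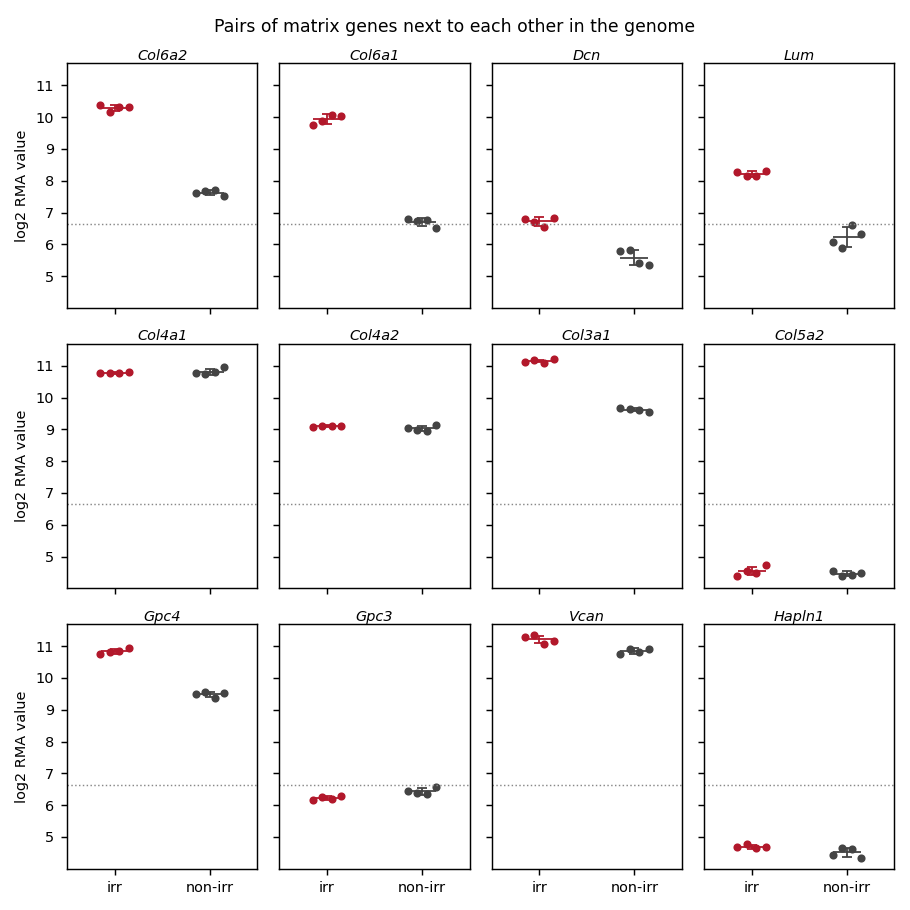
Value on each array (points, log2 RMA value), mean and SD (bars, n = 4) for 6 pairs of matrix genes next to each other in the genome, with irr left of non-irr and the floor of 6.64 as a dotted line. Col6a2 with Col6a1 and Dcn with Lum were higher together on irr arrays, the groups of Col4a1 and Col4a2 overlapped, and Col5a2, Gpc3 and Hapln1 lay under the line on all 8 arrays.

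Among fibrillar collagens, genes of types III and V were higher. Type I and II collagen genes, Col1a1, Col1a2 and Col2a1, and Col5a2 were below the floor on all 8 arrays, so 4 of 8 listed genes could be tested, and 3 were higher. Col5a1, a chain that nucleates fibrils, read 10.81, 10.69, 10.76 and 10.83 on irr arrays, against 8.86, 8.73, 8.70 and 8.75 on non-irr arrays. Its difference was 2.02 ± 0.05 (adjusted p = 1.17e-09), and its 3 probe sets gave 0.98 to 2.02, all called higher. Col3a1, the fibril collagen of distensible tissue, read 11.13, 11.17, 11.10 and 11.20 on irr arrays, against 9.66, 9.64, 9.60 and 9.56 on non-irr arrays. This was a difference of 1.54 ± 0.04 (adjusted p = 2.14e-09), and a second probe set gave 1.05. In both genes the groups were separated by more than 1 log2 unit. Col5a3 lay near the floor, at 6.88, 6.77, 6.95 and 7.08 on irr arrays and 6.70, 6.60, 6.37 and 6.39 on non-irr arrays. Its difference was 0.40 ± 0.09 (adjusted p = 0.00258), and only 0.07 separated the lowest irr from the highest non-irr array. Col11a1 overlapped between groups at -0.12 ± 0.07 (adjusted p = 0.144), and its other probe set was called lower at -0.30, while reference gene centring turned the first to 0.15.

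Because these collagens are also made by fibroblasts and mural cells, 13 markers of those cells were read on the same arrays. Pdgfrb, a marker of these cells that reached 6.57 on irr array 3, and Fap, Tagln, Rgs5, Foxd1 and Tcf21 were below the floor on all 8 arrays. Of the 7 markers past it, 4 (57.1%) were called higher and 1 (14.3%) lower, against 40.2% and 37.1% of all genes tested. Higher were Thy1 (1.95), Prrx1 (1.72), Prrx2 (0.57) and Twist2 (at least 1.04-fold, with all non-irr arrays below the floor). Acta2, smooth muscle actin, was lower at -1.75, and Twist1 and Des were not called. The summed intensity of the 13 markers was 5340 to 5980 on irr arrays and 3120 to 3380 on non-irr arrays, without overlap. Thy1 was the brightest of them, with means of 11.55 on irr and 9.60 on non-irr arrays, and weighs most in this gap. Of 9 endothelial markers, 2 passed the floor, Kdr (-0.40) and Flt1 (-0.20), both called lower, and Pecam1 and Cdh5 did not pass. The endothelial list summed to 425 to 448 on irr arrays and 454 to 509 on non-irr arrays. Of 8 microglia markers, 2 passed the floor, and the list summed to 592 to 706 on irr arrays and 417 to 472 on non-irr arrays. Csf1r was not called (-0.05), and Cd68, all of whose non-irr arrays were below the floor, was at least 2.75-fold higher. Aif1, Cx3cr1, Ptprc, Itgam, Tmem119 and Trem2 were below the floor. The part of other cell types in the matrix values was not tested.

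In the rest of the beaded-filament and fibril-associated class, 1 gene was higher and 2 lower. Col12a1, which decorates fibril surfaces, read 7.48, 7.41, 7.42 and 7.42 on irr arrays, against 5.16, 5.40, 5.38 and 5.65 on non-irr arrays. The non-irr values were all below the floor, so irr NSCs were at least 1.73-fold higher (adjusted p = 2.69e-08). Here and below, a fold given as "at least" sets the mean of the brighter group against the floor. Col9a3 and Col16a1 were lower, at -0.38 ± 0.06 (adjusted p = 0.000344) and -0.30 ± 0.07 (adjusted p = 0.00438). Both calls were lost when arrays were centred on 9 reference genes (-0.11 and -0.04), but not when Tfrc, the lowest of those genes at -1.40, was left out of the centring (-0.26 and -0.18).

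Basement membrane genes were all past the floor and had a median of 0.20 over 8 genes, of which 4 were called higher. Col4a5, an X-linked chain of type IV collagen, was called higher. It read 9.53, 9.54, 9.53 and 9.60 on irr arrays, against 8.08, 8.12, 8.17 and 8.07 on non-irr arrays, a difference of 1.44 ± 0.04 (adjusted p = 2.58e-09). A second Col4a5 probe set gave 0.92. Nid2, a nidogen that links laminin to type IV collagen, read 8.67, 8.69, 8.56 and 8.53 on irr arrays, against 8.15, 8.16, 8.12 and 8.13 on non-irr arrays (0.47 ± 0.05, adjusted p = 1.47e-05). Col18a1, the core protein from which endostatin is cut, read 10.27, 10.26, 10.33 and 10.33 on irr arrays, against 9.95, 9.84, 9.88 and 9.89 on non-irr arrays (0.40 ± 0.04, adjusted p = 1.78e-05). The groups of both genes were apart by 0.30 or more. Agrn, which encodes agrin, was higher by 0.32. The related nidogen Nid1 was called lower at -0.16 ± 0.05 (adjusted p = 0.0229) with groups that overlapped, but its difference turned to 0.11 with reference gene centring and its call was lost in 8 of 21 alternatives. Hspg2, perlecan, was not called at -0.16 ± 0.07 (adjusted p = 0.0676), a difference that reference gene centring turned to 0.10, while its other probe set, of a kind that can match more than 1 transcript, was called higher at 1.07 ± 0.05 (adjusted p = 4.10e-08).

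Fibronectin and elastic fiber genes split, with 3 higher and 3 lower of 6 tested. Fn1, fibronectin, the integrin-binding glycoprotein on which other matrix is assembled, read 12.10, 12.17, 11.96 and 12.08 on irr arrays, against 10.19, 10.11, 10.11 and 10.14 on non-irr arrays. The difference was 1.94 ± 0.05 (adjusted p = 1.55e-09), a 3.83-fold higher signal, and the groups were 1.77 apart. Fbln5, fibulin 5, needed for elastic fiber assembly, read 7.88, 7.89, 7.84 and 7.86 on irr arrays, against 5.72, 5.92, 5.86 and 5.87 on non-irr arrays, at least 2.33-fold higher (adjusted p = 9.40e-10). Eln, elastin itself, was higher by 0.70 ± 0.06 (adjusted p = 3.20e-06) on 1 probe set and not called at -0.04 on the other. The lower genes were Fbn2, Fbln2 and Fbln1. Fbn2, fibrillin 2, a microfibril protein known for its fetal expression, read 9.13, 9.48, 9.34 and 9.37 on irr arrays, against 10.57, 10.74, 10.62 and 10.66 on non-irr arrays. It fell by 1.32 ± 0.08 on the log2 scale (adjusted p = 1.64e-07), and its 2 probe sets agreed at -1.32 and -1.33. Fbln2 and Fbln1 were lower at -0.69 and -0.47, so members of the fibulin family were called in opposite directions.

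Of the small leucine-rich proteoglycans, which bind collagen fibrils and set their spacing, 2 of 3 were higher from a non-irr level below the floor. Lum, lumican, read 8.28, 8.14, 8.14 and 8.32 on irr arrays, against 6.07, 5.90, 6.61 and 6.31 on non-irr arrays, at least 2.98-fold higher (adjusted p = 5.08e-07). Its non-irr SD of 0.31 was the highest among the members. Dcn, decorin, read 6.81, 6.71, 6.53 and 6.84 on irr arrays, against 5.79, 5.81, 5.40 and 5.34 on non-irr arrays, and 1 of the irr arrays was also below the floor. The groups did not overlap (adjusted p = 1.32e-05), and the difference against the floor was at least 1.06-fold. Bgn, biglycan, overlapped at -0.10 ± 0.06 (adjusted p = 0.151), and reference gene centring turned it to 0.17, called higher (adjusted p = 0.044).

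Neural matrix genes that could be tested, 6 of 8, were all called higher, most of them by less than 0.80. Acan and Hapln1, aggrecan and a link protein, were below the floor on all arrays. The exception in size was Tnr, tenascin R, a brain matrix protein of oligodendrocytes and perineuronal nets. Tnr read 8.95, 8.82, 8.55 and 8.80 on irr arrays, against 5.68, 6.14, 6.19 and 6.20 on non-irr arrays, at least 4.40-fold higher (adjusted p = 3.79e-08). Ncan, neurocan, a hyaluronan-binding lectican, read 11.63, 11.68, 11.63 and 11.74 on irr arrays, against 10.83, 10.88, 10.73 and 11.06 on non-irr arrays (0.79 ± 0.07, adjusted p = 4.04e-06). Its 3 probe sets gave 0.61 to 0.93, each called higher. Ptprz1, which encodes a receptor phosphatase and its secreted form phosphacan, read 12.47, 12.56, 12.40 and 12.46 on irr arrays, against 11.97, 12.11, 12.01 and 12.14 on non-irr arrays (0.41 ± 0.05, adjusted p = 7.38e-05). Its other probe sets gave 0.16, not called, and 1.34, called higher, and the transcript forms they detect were not resolved here. Vcan (versican), Tnc (tenascin C) and Bcan (brevican) were higher by 0.36, 0.36 and 0.32 with no overlap between groups. The Bcan probe set used can match other transcripts, and its plain one gave 0.77. The Vcan call was lost when its 3 probe sets were averaged.

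**Figure D3:**
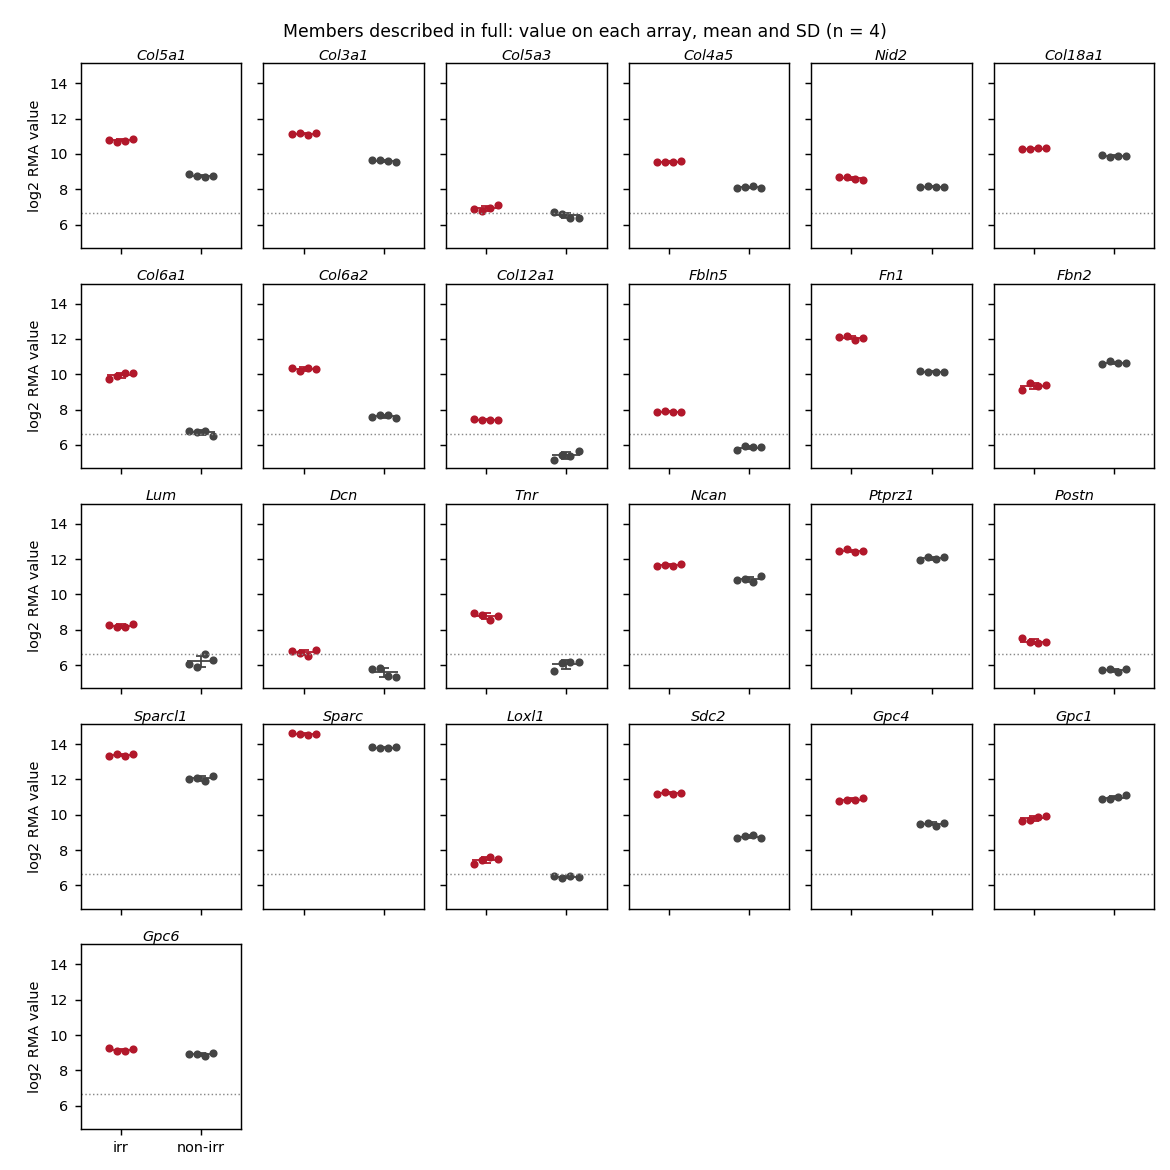
Value on each array (points, log2 RMA value), mean and SD (bars, n = 4) for the 25 members given in full, with irr left of non-irr and the floor of 6.64 as a dotted line. Only Fbn2 and Gpc1 are lower on irr arrays, and no panel has overlapping groups. Heights of different genes come from different probes and cannot be compared.

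Matricellular proteins, which sit in the matrix and act on cells, included 3 higher genes of 4 tested, with Thbs1, Thbs2 and Thbs4 below the floor. Postn, periostin, an integrin ligand, read 7.51, 7.31, 7.24 and 7.28 on irr arrays, against 5.71, 5.76, 5.60 and 5.75 on non-irr arrays, at least 1.61-fold higher (adjusted p = 1.81e-08). Sparcl1, hevin, which astrocytes secrete at synapses, read 13.31, 13.45, 13.33 and 13.43 on irr arrays, against 12.03, 12.06, 11.92 and 12.22 on non-irr arrays. This was a difference of 1.33 ± 0.07 (adjusted p = 8.15e-08), with 1.09 between the groups. Sparc, its collagen-binding relative, read 14.66, 14.57, 14.52 and 14.56 on irr arrays, against 13.83, 13.76, 13.78 and 13.82 on non-irr arrays (0.78 ± 0.05, adjusted p = 2.11e-07). The other Sparc probe sets gave 1.16, called higher, and -0.11, not called. Mgp, matrix Gla protein, an inhibitor of calcification, was not called at 0.07 ± 0.10 (adjusted p = 0.555). Lysyl oxidases crosslink collagen and elastin: Lox was below the floor, and Loxl1 read 7.21, 7.41, 7.58 and 7.49 on irr arrays, against 6.50, 6.41, 6.50 and 6.45 on non-irr arrays, at least 1.72-fold higher (adjusted p = 1.56e-06).

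Heparan sulfate proteoglycans of the cell surface changed in both directions, with 4 higher and 2 lower of 6 tested and Gpc3 below the floor. Sdc2, a transmembrane syndecan, read 11.20, 11.28, 11.15 and 11.25 on irr arrays, against 8.71, 8.79, 8.87 and 8.66 on non-irr arrays. Its difference of 2.46 ± 0.06 (adjusted p = 6.41e-10) had the smallest adjusted p of the members, and its 3 probe sets gave 1.74 to 2.46. Sdc4 was higher as well, by 0.77, and Sdc1 was lower, at -1.09 ± 0.05 (adjusted p = 4.87e-08), with 4 probe sets between -1.09 and -0.50, all called lower. The one at -1.09 is of a kind that can match other transcripts, and the 3 plain ones lay between -0.98 and -0.50. Among glypicans, which are held by a lipid anchor, Gpc4 read 10.76, 10.82, 10.85 and 10.95 on irr arrays, against 9.50, 9.55, 9.37 and 9.52 on non-irr arrays (1.36 ± 0.06, adjusted p = 2.30e-08). Gpc1 read 9.64, 9.73, 9.87 and 9.94 on irr arrays, against 10.92, 10.89, 10.98 and 11.10 on non-irr arrays, and fell by 1.17 ± 0.08 on the log2 scale (adjusted p = 3.97e-07). So both the syndecan and the glypican family held members called higher and members called lower, with groups that did not overlap. Gpc6 gave calls in both directions. It read 9.25, 9.09, 9.09 and 9.18 on irr arrays, against 8.92, 8.93, 8.80 and 8.96 on non-irr arrays (0.25 ± 0.06, adjusted p = 0.00225), while 1 of its other 3 probe sets was called lower at -0.22 ± 0.08 (adjusted p = 0.0279) and the mean over all 4 gave -0.048.

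Gpc6 was the sole member with probe sets called in opposite directions. Of 23 members with more than 1 probe set past the floor, 14 had all of them called in 1 direction, and 8 had a mix of called and not called. Where on the transcripts the probes lie was not determined, and the part of the unequal 3′ to 5′ signal given above in these gaps was not tested.

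**Figure D4:**
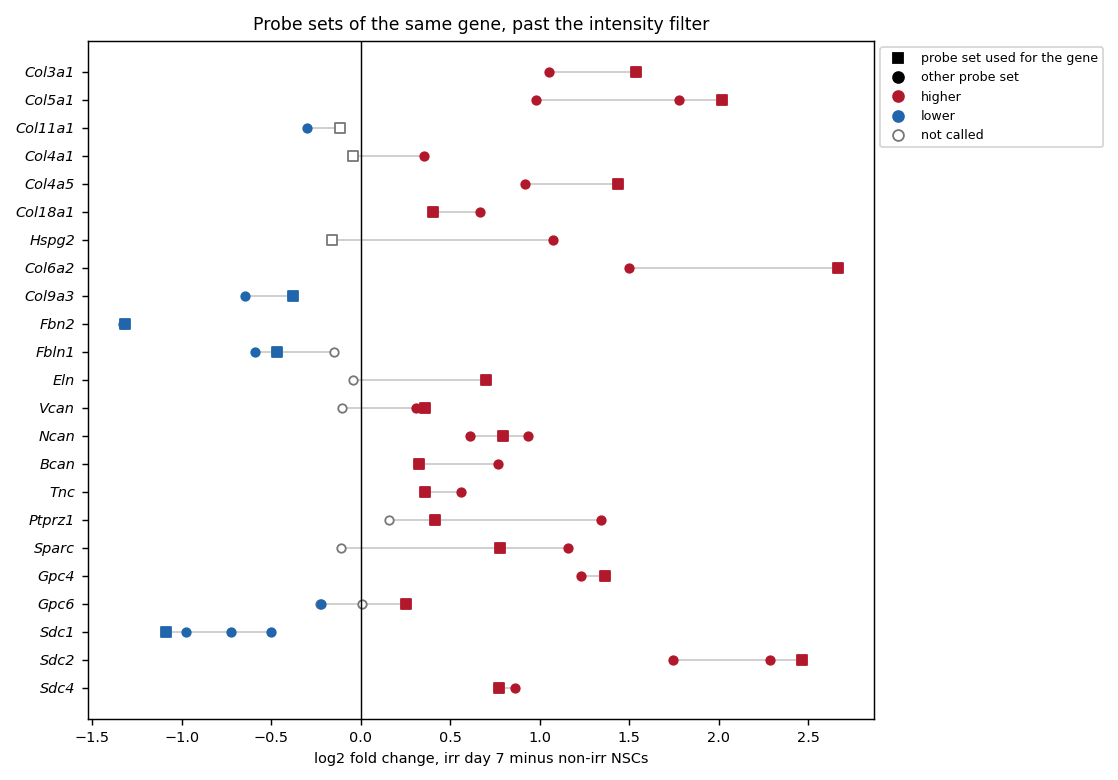
Differences between irr and non-irr NSCs (x axis, irr minus non-irr, log2 scale) for each probe set past the floor for the 23 members with more than 1. Squares are the probe sets used for the gene and circles the others, red was called higher, blue lower and open symbols were not called. Hspg2 spans -0.16 to 1.07 and Gpc6 lies on both sides of 0, whereas the probe sets of Sdc2, Fbn2 and Sdc1 lie on 1 side.

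Genes that build or modify the matrix were read from further lists. In collagen modification and export, 10 of 17 genes tested (58.8%) were higher and 3 (17.6%) lower, with a median of 0.33, against 40.2% higher and 37.1% lower among all genes. At least 2-fold higher was 1 gene, or 5.88% of the list, against 8.88% of all genes. The largest increases were in Plod1, a lysyl hydroxylase (1.53 ± 0.07, adjusted p = 3.07e-08), and Bmp1, the procollagen C-proteinase (0.91 ± 0.05, adjusted p = 1.56e-07), and the largest decreases in the galactosyltransferase Colgalt1 (-0.34) and the prolyl hydroxylase P3h2 (-0.30). In glycosaminoglycan synthesis, 20 of 30 (66.7%) were higher and 5 (16.7%) lower, with a median of 0.37, or 0.33 with the 1 gene that had a group below the floor set at its bound. At least 2-fold higher were 10% of the list and 8.88% of all genes. Csgalnact1 and Dse, which act on chondroitin and dermatan sulfate, were higher by 1.66 ± 0.05 (adjusted p = 1.55e-09) and 1.20 ± 0.12 (adjusted p = 8.14e-06). Genes of heparan sulfate synthesis were called in both directions. Higher were the glycosyltransferase genes Extl3 (1.05), Ext2 (0.49), Extl2 (0.41) and Ext1 (0.24), the sulfotransferase genes Hs2st1 (0.64), Hs6st1 (0.43) and Ndst2 (0.21), and Sulf2 (0.62), whose product removes sulfate. The largest decreases of the list were also here: the epimerase Glce fell by 1.20 ± 0.05 (adjusted p = 1.89e-08) and the sulfotransferase Hs6st2 by 0.80 ± 0.10 (adjusted p = 4.47e-05). Papss1 (-0.44), Slc35b2 (-0.44) and Ugdh (-0.22) of the same glycosaminoglycan list were also called lower. Collagen genes outside the 57 were mostly below the floor, 16 of 23 on the array, and of the 7 tested 2 were higher and 2 lower, with 4 having a group below the floor on every array. Col9a1 was among these, with all irr arrays below the floor and non-irr arrays at least 1.17-fold higher. Of 20 other matrix glycoprotein and proteoglycan genes tested, 9 (45%) were higher and 7 (35%) lower, near the 40.2% and 37.1% of all genes, with a median of -0.0055. The 2-fold shares were not alike: 30% of this list were at least 2-fold higher and 5% lower, against 8.88% and 6.16% of all genes. With the floor in place of the lower group, 2 of these 6 genes remained at least 2-fold higher. The median of these 2 lists was near 0, and the shift that reference gene centring makes would put it above. That shift is the same for every gene, so the median of all genes, 0.0065, would move with it. Fbln7, a fibulin, and Ogn, osteoglycin, had all non-irr arrays below the floor and were at least 1.84-fold (adjusted p = 1.77e-07) and 1.87-fold higher (adjusted p = 3.88e-08). Mfap4, a microfibril-associated protein gene, had all irr arrays below the floor, and its signal was at least 2.95-fold higher on non-irr arrays (adjusted p = 1.25e-07). Emilin1, an elastic fiber glycoprotein gene, was lower at -0.56 ± 0.06 (adjusted p = 2.33e-05).

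**Figure D5:**
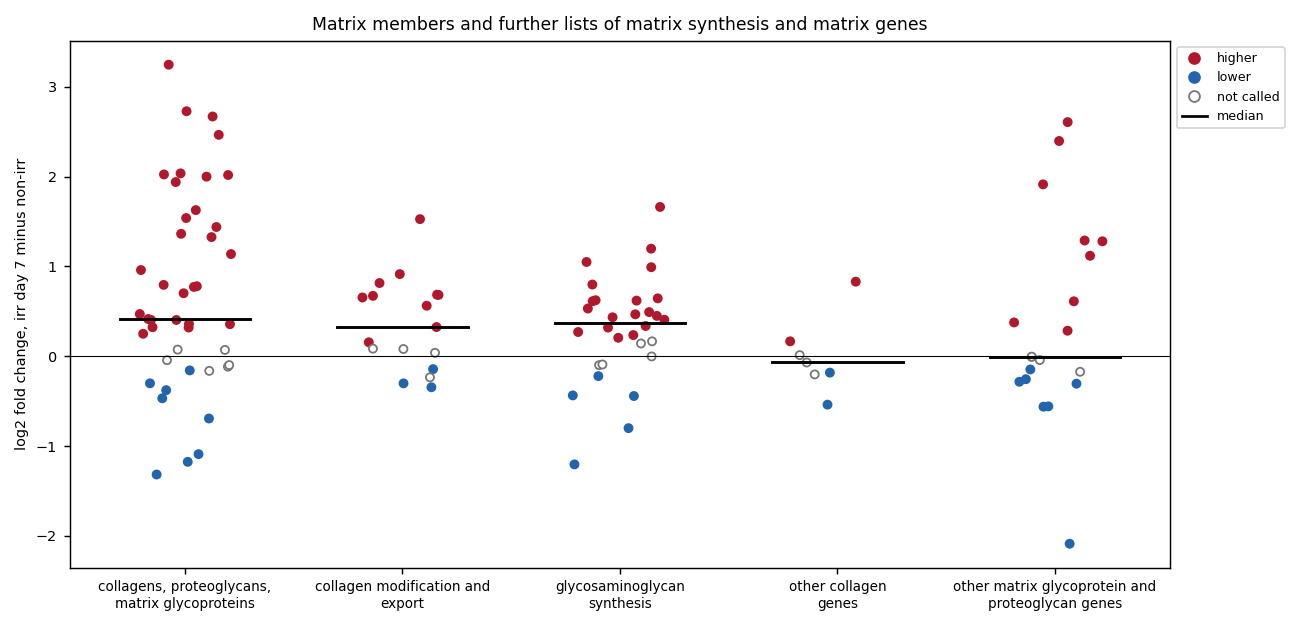
Differences between irr and non-irr NSCs (y axis, irr minus non-irr, log2 scale) for each gene past the floor in the 57-gene list and 4 further lists, with the median as a black line; red was called higher, blue lower and open symbols were not called. The median is 0.41 for the members, 0.33 and 0.37 for the 2 synthesis lists, -0.069 for other collagen genes and -0.0055 for other matrix genes. The shift that reference gene centring makes would put both of these last medians above 0, and would move the median of all genes by the same amount. Genes with 1 group below the floor, 7 of the members and 1, 4 and 6 of the last 3 lists, are drawn at their measured difference and not at a bound.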

How the data were processed

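Total RNA of 4 irr and 4 non-irr NSC samples was hybridised to 1 Affymetrix array each. The authors deposited log2 values after scanning with GCOS and RMA normalization, and these log2 values were used as deposited, with no change of scale. Detection calls and scanner files were not used here. Of 45101 probe sets, 34958 had 1 gene symbol, updated through the Entrez number where it matched, 932 had several and 9211 had none. Probe sets over an intensity of 100 on at least 1 array (21919, without 64 controls) were fitted with limma 3.58.1 in R 4.3.3 (lmFit and eBayes, two-sided), with Benjamini-Hochberg adjustment over these probe sets. The call was an adjusted p under 0.05, with a 2-fold threshold as a second rule, and 8339 probe sets were called higher and 8128 lower. The fit was tested on simulated data. In each class, up to 3 called members with the largest absolute difference and no overlap between groups were given in full, and any member with probe sets called in opposite directions. Of each further matrix list, up to 2 called genes with the largest increase and 2 with the largest decrease were given. Other members are given by their differences. The arrays of Col4a1 and Col4a2, 8 further heparan sulfate genes, and Papss1, Slc35b2 and Ugdh were added after their values were seen. Members and lists were chosen with earlier results of these data known. Precision is limited by the 4 arrays per group. Alternatives to the filter, centring, weights, choice of probe set and arrays included were run. Figures were drawn with matplotlib.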

Additional observations from a re-analysis of the deposited data

Results flagged for a closer look

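In 4 of 86 groups of 4 arrays, 1 array lay farther from the others than Dixon's critical ratio, and chance alone gives about 1 in 20. Col9a3 on irr array 1 read 7.16, against 7.38 to 7.39 on the other irr arrays. On the non-irr side, Tnr on array 1 read 5.68, with 6.14 to 6.20 on the others, Col4a1 on array 4 read 10.96, with 10.75 to 10.79 on the others, and Agrn on array 4 read 10.48, with 10.35 to 10.36 on the others. Leaving out these arrays changed the call of none of the 4 genes.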

How the results depend on the processing

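The 29 members called higher stayed between 24 and 33, and the 8 called lower between 5 and 9, in the alternatives other than a test against a 1.5-fold change, which called 18 higher and 3 lower. The filter set how many members were tested: 43 in the main setting, 54 without a filter and 42 with the floor exceeded on at least 4 arrays. The share of all genes called was not computed for the alternatives, so these counts cannot be set against it. Centring on 9 reference genes moves every gene by the same amount. It shifted the median of all probe sets by 0.26, and gave 33 members higher, 5 lower and 1 at least 2-fold lower. Of these reference genes 5 were themselves called lower, with Tfrc at -1.40 and Pgk1 at -0.66. Without Tfrc, a setting chosen after seeing the data, the shift was 0.12, 30 members were higher and 7 lower, the members' median was 0.54, Nid1 was not called at -0.0355, Col4a1, Bgn and Col11a1 were above 0 and not called, and Col16a1 and Col9a3 kept their calls. The members' median of 0.41 was 0.32 without a filter, 0.68 with reference gene centring, 0.54 with the mean of all probe sets, 0.70 with plain identifiers, 0.46 without irr arrays 3 and 4, and 0.40 to 0.47 with 1 array left out. Directions turned for Col4a1 (0.22), Nid1 (0.11), Bgn (0.17), Col11a1 (0.15) and Hspg2 (0.10) with all 9 reference genes, and for Col4a1 (0.15), Hspg2 (0.45) and Gpc6 (-0.048) with the mean of all probe sets; the last 3 values follow from their other probe sets, and otherwise the cause was not tested. Mgp (0.33) and Col4a2 (0.34), and of the turned genes Col4a1 and Bgn, were called higher with all 9 reference genes. Of 37 called members, 32 kept their call in each setting that tested them, other than the 1.5-fold test. For 24 these were all 21 settings, while 8 were left out by at least 1 filter or choice of probe set. The exceptions were Col16a1, Col9a3, Gpc6, Vcan and Nid1. Leaving out non-irr array 1 or 4 or irr array 1 or 4 cost only the Nid1 call (-0.15 to -0.13). Hspg2 was called lower with array weights and without non-irr array 3. With the mean of all probe sets, Hspg2 (0.45) and Col4a1 (0.15) were called higher and Col11a1 (-0.21) lower. Whether equal replicate numbers pair the samples was not settled. Their deviations correlated at 0.04, 0.38, -0.21 and 0.51 for numbers 1 to 4, against -0.48 to 0.38 for unequal numbers. With the replicate block, 29 members were higher and 7 lower, the median was 0.41, and Nid1 was the call lost. A filter on the mean over 8 arrays, chosen after seeing the data, gave 26 higher and 8 lower.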
